A study of Homo sapiens with 6 samples.

Results

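The p53 target genes described here are those of a half-life table with the symbol CDKN1A, MDM2, GADD45A, SESN1, BBC3, BAX, PHLDA3, RRM2B, ZMAT3 or TP53I3. Of these 10 genes 7 were listed among the table's 7682: CDKN1A, MDM2, SESN1, RRM2B, PHLDA3, BBC3 and BAX. GADD45A, ZMAT3 and TP53I3 were not listed, so no expression or half-life of theirs is analysed here. The lowest expression value in the table was 1.00, so a gene with a lower value in any column would have no row. The cells were HEK293, a human embryonic kidney line, transfected with MOV10 siRNA or mock transfected. All were labelled with 700 µM 4-thiouridine (4sU), a uridine analogue that marks newly made RNA, for 60 min. From each condition 3 poly(A)+ fractions were sequenced: total RNA, the newly made 4sU-labelled RNA, and the flow-through that did not bind the beads. This gave 6 groups, each with 2 replicate columns in the table, and the authors computed 1 half-life per gene, condition and replicate number. Nothing in the labels says that the replicate columns came from separate cultures, so p-values measure only the spread between these columns, which may be technical. No non-targeting siRNA is named in the labels, so transfection of an siRNA and loss of MOV10 cannot be told apart.

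The transcription factor p53 is activated by DNA damage and other stress and induces genes that stop the cell cycle, repair DNA or kill the cell. It also induces MDM2, the ubiquitin ligase that binds p53 and sends it to the proteasome, which closes a negative feedback loop. HEK293 cells carry adenovirus E1A and E1B genes, and E1B protein binds p53 and represses its transcriptional activity, so the line is a limited model of a p53 response. Many p53-induced mRNAs are short-lived, and mRNA with AU-rich sequence in its 3' UTR is often bound by proteins that regulate decay. MOV10 is an RNA helicase that binds UPF1, a helicase that acts in nonsense-mediated decay.

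Short sequences of kinds that can bear on synthesis and decay are shown first, and none was tested for an effect here. In RefSeq promoter windows (GRCh38.p14, from 250 bases before to 50 after a gene start), a pair of p53 half-sites with at most 2 mismatches in all and at most 13 bases between them was searched. The half-site is the known consensus of 10 bases, which reads the same on both strands, and its C and G core was required. Of 35116 windows 1030 (2.93%) held such a pair. Windows were at hand for 7 of the 10 genes: CDKN1A, MDM2, SESN1, BBC3, BAX and the unlisted TP53I3 and ZMAT3. PHLDA3, RRM2B and GADD45A had no window and were not searched. Of the genes searched only MDM2 held a pair, in 2 of its 4 windows and with 0 bases between the half-sites. It lay at chr12:68808923-68808942 on the plus strand of GRCh38.p14, 94 bases before the nearer of those starts. It is shown because MDM2 rose in every fraction, though no link to that rise was tested. The capitals mark its half-sites.
MDM2: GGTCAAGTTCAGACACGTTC
The p53 sites of other targets can lie outside windows of this length. The AU-rich pentamer ATTTA was searched on the sense strand of the longest annotated 3' UTR of each gene (GENCODE v29). CDKN1A had 3 copies, MDM2 32, RRM2B 22, PHLDA3 2 and SESN1 1, while BBC3 and BAX had 0. Of 5663 tested genes with a 3' UTR of at least 20 bases, 73.7% held ATTTA. The CDKN1A sites are shown because CDKN1A had the largest change among these genes, with ATTTA in capitals.
CDKN1A site 1: ttgtgttttaATTTAaacacctcct
CDKN1A site 2: cattagaattATTTAaacaaaaact
CDKN1A site 3: atgaaatactATTTAaagcctcctc
The letters TGTANATA, the core of the Pumilio binding site, had 1 copy in CDKN1A and 1 in BBC3, shown with the motif in capitals. MDM2 had 2 copies and RRM2B 3, and 29.6% of the 5663 genes held them.
CDKN1A: cacctcctcaTGTACATAccctggccgc
BBC3: tatgcgctgcTGTAGATAccggaatgaa
The letters TACTGCA, also searched in an earlier look at these data, were in none of the 7 members (0 copies each), against 11.7% of the 5663 genes.

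MOV10 total RNA was 3.53 and 3.64 in siRNA cells, against 13.1 and 14.6 in mock cells, so the targeted mRNA was at 0.259 of its mock level. It lay under the expression minimum after siRNA and was not tested. Expression values are the authors' normalised signal, with no unit named, so levels are compared between samples and not between genes, and depth is unknown. Of 7 HEK293 markers 3 were listed: LIN28B, NEFL and DDX1. Their summed total RNA value was 88.3 to 90.8 over the 4 total RNA columns. NEFM, PAX2, KRT8 and KRT18 were not listed, and the sum of the 3 does not by itself identify the line. Of leucocyte, fibroblast and liver markers 0 of 4, 0 of 4 and 0 of 3 were listed, and of erythroid markers 1 of 3, HBA1, at 14.5 to 19.1. The test covered 6064 genes whose total RNA averaged at least 5 in siRNA and in mock cells, and all 7 members passed this minimum. Changes are siRNA minus mock on the log2 scale, after adding 1 to expression values and after centring each column on its median gene. Ratios of means are uncentred and without the added 1.

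The p53 target genes did not move as 1 group after MOV10 siRNA. In total RNA 2 of 7, MDM2 and PHLDA3, rose and 0 fell, where 27.2% of all 6064 genes passed at an adjusted p under 0.05, 12.9% upward and 14.3% downward (limma with Benjamini-Hochberg adjustment). In 4sU-labelled RNA MDM2 and SESN1 rose, and CDKN1A and RRM2B fell, 4 of 7 against 21.4% of all genes (9.88% upward and 11.5% downward). In flow-through RNA MDM2 rose and BBC3 fell, 2 of 7 against 58.6% of all genes (31.7% upward and 26.8% downward). At an unadjusted 0.05 the flow-through count was 4 of 7 against 63.3% of all genes. No half-life passed (0 of 7, against 6.15% of all genes, 1.88% upward and 4.27% downward), while 4 passed an unadjusted 0.05 against 24.3% of all genes, CDKN1A and RRM2B upward and SESN1 and BBC3 downward. The median change of the 7 was 0.08 in total RNA, 0.08 in labelled RNA, -0.11 in flow-through RNA and 0.11 in half-life, where the medians of all genes were 0.01, 0.00, 0.03 and 0.00. The siRNA and mock columns did not overlap, relative to the median gene, for 6 of 7 members in total RNA and 4 of 7 in labelled RNA, where 64.4% and 62.3% of all genes did not. For flow-through RNA the count was 6 of 7 (81.1% of all genes), and for half-life 7 of 7 (55.8%). The half-life count depends on centring: in uncentred minutes only CDKN1A and RRM2B had groups that did not overlap. The uncentred share of all genes was not counted.

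**Figure D1:**
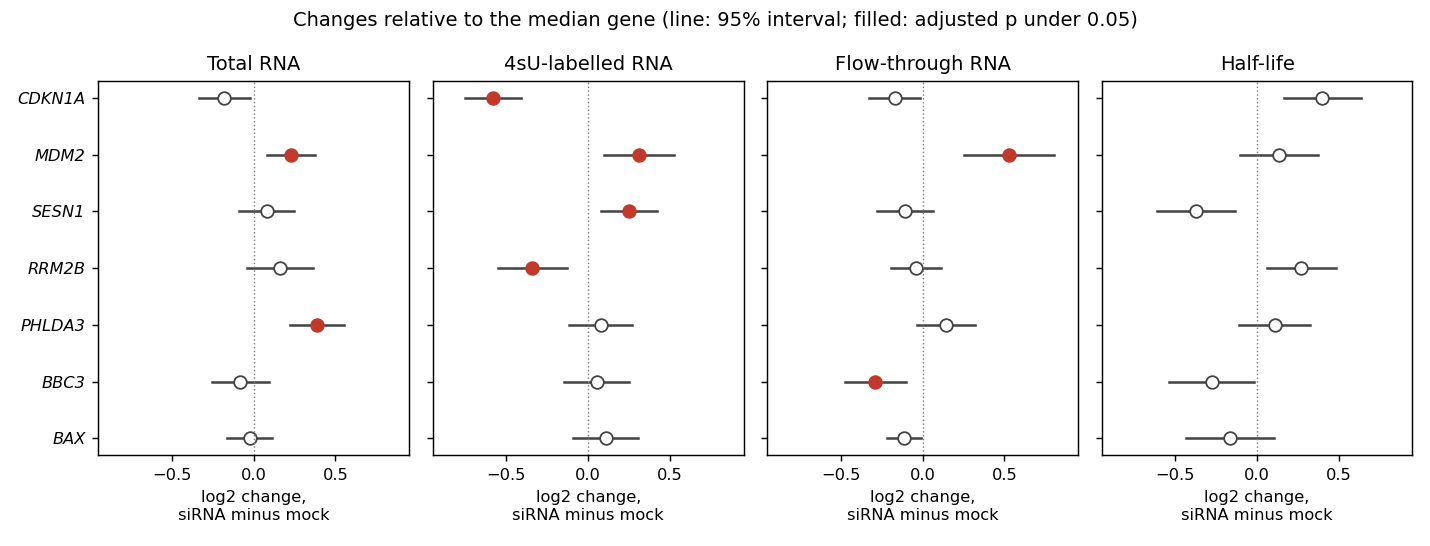
Log2 change, MOV10 siRNA minus mock, of each p53 target gene in total, 4sU-labelled and flow-through RNA and in half-life, relative to the median gene. Points are limma estimates, lines are 95% intervals, and filled points have an adjusted p under 0.05; CDKN1A has the lowest labelled change (-0.58) and MDM2 the highest flow-through change (0.53).

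CDKN1A encodes p21, the inhibitor of cyclin-dependent kinases through which p53 stops the cell cycle. Its newly made RNA fell after MOV10 siRNA. Labelled CDKN1A was 52.3 and 52.9 in siRNA cells, against 76.3 and 67.8 in mock cells, a ratio of means of 0.730. The groups did not overlap, and the siRNA columns lay close together. The change of -0.58 had an SE of 0.08 and passed (adjusted p = 0.000934, limma). It passed in all 11 alternatives, with adjusted p from 1.8e-08 to 0.0032. Total CDKN1A RNA was 25.2 and 26.1 in siRNA cells, against 28.4 and 30.8 in mock cells. The groups did not overlap here either, but the change of -0.18 did not pass (95% interval -0.33 to -0.03, adjusted p = 0.0795 by limma). Flow-through CDKN1A was 27.7 and 30.3 in siRNA cells and 32.03 and 34.3 in mock cells, a change of -0.17 (limma adjusted p = 0.058). The flow-through change passed without centring (0.0434) and without siRNA replicate 2 (0.0432), in 3 of 11 alternatives in all (0.0223 to 0.274). The total RNA change passed in 1 of 11 (0.0395 to 0.494). The difference between the labelled and the total change was -0.40 (SE 0.09) and passed the interaction test (limma adjusted p = 0.0128), as for 2 of 7 members, both downward, against 16.5% of all genes (8.44% upward and 8.06% downward). That call was lost without siRNA replicate 1 (adjusted p = 0.0695), without siRNA replicate 2 (0.108), without mock replicate 1 (0.0745) and without centring (0.174), over a range of 0.0065 to 0.174 in all alternatives.

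The authors' half-life of CDKN1A mRNA was 191 and 270 min in siRNA cells, against 137 and 165 min in mock cells. Every siRNA value was above every mock value. The median half-life of all tested genes was 764 and 1030 min in the siRNA columns and 742 and 810 min in the mock columns, so siRNA replicate 2 was long for genes in general. Relative to the median gene the CDKN1A change was 0.40 (SE 0.10), which missed the threshold (adjusted p = 0.0651 by limma, and 0.0421 to 0.891 in the alternatives). It passed with quantile normalisation (adjusted p = 0.0421) and with an expression minimum of 20 (0.0452). Recomputing half-lives from the 3 fractions put CDKN1A at 155 and 175 min in siRNA cells and 124 and 152 min in mock cells, a change of 0.38. Half-lives follow the ratio of labelled to flow-through RNA, so a lower labelled value and a longer half-life are not independent measurements. The exons of CDKN1A overlap those of DINOL, a non-coding RNA on the opposite strand. The library kit named in the labels does not mark strand, so reads from the pair cannot be told apart. The same limit holds for other annotated overlaps: MDM2 with AC025423.4 (opposite strand) and AC025423.2 (same strand), PHLDA3 with AC096677.2 (same strand) and SESN1 with AL390208.1 (opposite strand).

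**Figure D2:**
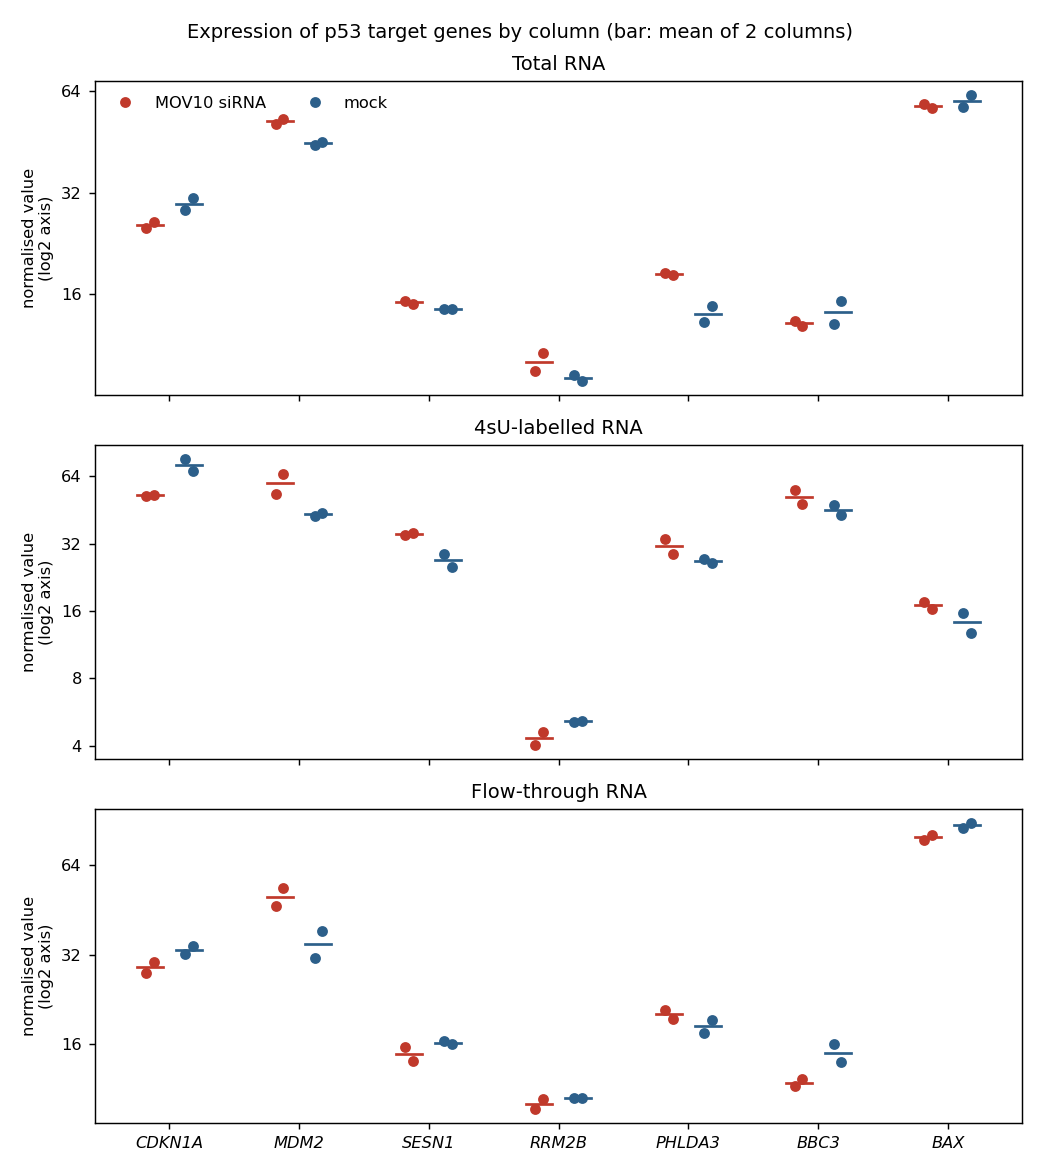
Normalised expression of each p53 target gene in total, labelled and flow-through RNA, on log2 axes, with MOV10 siRNA columns in red and mock columns in blue and bars at the mean of 2 columns. Labelled CDKN1A is near 52 in both siRNA columns and at 67.8 or more in both mock columns; levels of different genes are not comparable on this axis.

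MDM2, whose product ubiquitinates p53, rose in all 3 fractions. Total MDM2 RNA was 51.1 and 52.97 in siRNA cells, against 44.4 and 45.3 in mock cells, a 1.16-fold ratio of means. The centred log2 change was 0.23 (SE 0.07, adjusted p = 0.0231 by limma). In labelled RNA MDM2 was at 53.5 and 65.7 in siRNA cells, against 42.7 and 43.8 in mock cells, 1.38-fold (log2 change 0.31, SE 0.10, limma adjusted p = 0.0438). The siRNA columns differed more from each other than the mock columns did. Flow-through MDM2 was 46.5 and 53.5 in siRNA cells, against 31.2 and 38.5 in mock cells, 1.43-fold (log2 change 0.53, SE 0.11, limma adjusted p = 0.00905). None of these fractions had overlapping groups. The total change of MDM2 (0.23) was smaller than that of either the labelled (0.31) or the flow-through fraction (0.53), and the reason was not tested. The flow-through call held in all 11 alternatives (adjusted p 0.00020 to 0.0387). The total RNA call was lost without siRNA replicate 1 (0.111), siRNA replicate 2 (0.277) or mock replicate 2 (0.0706) and without centring (0.075), in a range of 0.0031 to 0.277. The labelled call was lost in 6 of 11 alternatives, among them without siRNA replicate 2, where the change was 0.17 (adjusted p = 0.251), and without mock replicate 1 (0.130), in a range of 0.0033 to 0.251.

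The MDM2 half-life was 384 and 502 min in siRNA cells and 313 and 391 min in mock cells, a change of 0.13 relative to the median gene (95% interval -0.11 to 0.37, limma adjusted p = 0.454). The labelled change exceeded the total change by 0.08, which did not pass (95% interval -0.19 to 0.35, limma adjusted p = 0.710). That difference turned to -0.02 without siRNA replicate 2. MDM2 has the longest 3' UTR of the members, 10837 bases, at percentile 99.2 of the 5663 genes.

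SESN1 and RRM2B act in the stress response and repair. SESN1 encodes sestrin 1, which restrains mTORC1 signalling, and RRM2B encodes the p53-inducible subunit of ribonucleotide reductase that supplies deoxynucleotides. Their labelled RNA moved in opposite directions. Labelled SESN1 was 35.1 and 35.9 in siRNA cells, against 28.8 and 25.2 in mock cells, 1.32-fold (change 0.25, SE 0.08, adjusted p = 0.0416 by limma). Labelled RRM2B was 4.04 and 4.61 in siRNA cells, against 5.10 and 5.15 in mock cells, a ratio of 0.843 (log2 change -0.34, SE 0.10, limma adjusted p = 0.0284). In neither gene did the groups overlap.

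Both calls were sensitive to single columns. The SESN1 call was lost without siRNA replicate 1 (adjusted p = 0.0828), siRNA replicate 2 (0.0991) or mock replicate 2 (0.249), with quantile normalisation (0.0707) and with no trend (0.0589), in a range of 0.0061 to 0.249 over the alternatives. The RRM2B call was lost without siRNA replicate 1 (0.119), without mock replicate 2 (0.163) and without centring (0.121), in a range of 0.011 to 0.163. Total SESN1 was 15.3 and 14.9 in siRNA cells and 14.5 and 14.4 in mock cells (change 0.08, limma adjusted p = 0.498). Total RRM2B was 9.45 and 10.6 in siRNA cells and 9.17 and 8.84 in mock cells (change 0.16, limma adjusted p = 0.224). In flow-through RNA SESN1 was at 15.5 and 14.0 in siRNA cells and 16.3 and 15.98 in mock cells (change -0.11, limma adjusted p = 0.223). RRM2B was there at 9.67 and 10.4 in siRNA cells and 10.5 and 10.5 in mock cells (change -0.04, limma adjusted p = 0.603).

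For RRM2B the labelled change lay 0.50 below the total change (interaction -0.50, SE 0.13, limma adjusted p = 0.0255). The call was lost without siRNA replicate 1 (0.0776), siRNA replicate 2 (0.0899), mock replicate 2 (0.190) and without centring (0.0717), in a range of 0.022 to 0.190. Part of that RRM2B difference was the total change of 0.16, which did not pass. Labelled (-0.34) and flow-through (-0.04) RRM2B both lay below mock, and why total RNA did not was not tested. The half-life of SESN1 was 183 and 220 min in siRNA cells and 212 and 244 min in mock cells, a change of -0.37 relative to the median gene (limma adjusted p = 0.078). That of RRM2B was 977 and 1301 min in siRNA cells and 802 and 832 min in mock cells, a change of 0.27 (limma adjusted p = 0.124). For RRM2B every siRNA half-life was above every mock half-life, while the uncentred SESN1 values overlapped.

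PHLDA3, a pleckstrin homology domain protein that represses Akt, rose in total RNA. It was at 18.4 and 18.2 in siRNA cells, against 13.2 and 14.7 in mock cells, 1.31-fold. This change of 0.39 (SE 0.08, adjusted p = 0.00217 by limma) passed in all 10 alternatives that tested it (1.3e-05 to 0.0184). The groups did not overlap, and the siRNA columns lay close together. Labelled PHLDA3 was 33.4 and 28.9 in siRNA cells and 27.2 and 26.2 in mock cells (change 0.08, limma adjusted p = 0.581), and this turned to -0.04 without siRNA replicate 1. Flow-through PHLDA3 was 20.8 and 19.4 in siRNA cells and 17.4 and 19.2 in mock cells (change 0.14, limma adjusted p = 0.133). The total change of PHLDA3 was thus larger than that of either fraction. Its labelled change lay 0.31 below the total change, which did not pass (interaction -0.31, limma adjusted p = 0.0803). Its half-life was 174 and 234 min in siRNA cells and 152 and 176 min in mock cells (change 0.11, limma adjusted p = 0.506).

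BBC3 and BAX serve apoptosis. BBC3 encodes PUMA, a BH3-only protein that p53 induces, and BAX encodes the effector that permeabilises the outer mitochondrial membrane. Flow-through BBC3 fell, at 11.5 and 12.2 in siRNA cells, against 16.0 and 13.8 in mock cells, a ratio of 0.794 (change -0.29, SE 0.08, adjusted p = 0.0189 by limma). The groups did not overlap. The call was lost without siRNA replicate 1 (0.0674) and without mock replicate 1 (0.0998), in a range of 0.015 to 0.0998. Total BBC3 was 13.3 and 12.9 in siRNA cells and 13.1 and 15.2 in mock cells (change -0.08, limma adjusted p = 0.492). Labelled BBC3 was 55.6 and 48.1 in siRNA cells and 47.5 and 43.1 in mock cells, a change of 0.05 (limma adjusted p = 0.718) that turned to -0.06 without siRNA replicate 1. Its half-life differed by -0.28 relative to the median gene (limma adjusted p = 0.184).

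With the settings described above, BAX passed in no fraction. Total BAX was 58.6 and 57.2 in siRNA cells and 57.3 and 62.3 in mock cells, a change of -0.03 (95% interval -0.16 to 0.11, limma adjusted p = 0.808), which turned to 0.0045 with quantile normalisation. Labelled BAX was 17.5 and 16.4 in siRNA cells and 15.7 and 12.8 in mock cells (change 0.11, limma adjusted p = 0.432). Flow-through BAX was 78.1 and 81.2 in siRNA cells and 85.8 and 88.6 in mock cells (change -0.11, limma adjusted p = 0.0591). This passed with an expression minimum of 20 (adjusted p = 0.0497) and without centring (0.0416), in 3 of 11 alternatives in all (0.0412 to 0.285). The flow-through groups did not overlap, and those of total RNA did. The BAX half-life differed by -0.16 (limma adjusted p = 0.415).

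The members spanned much of the range of mRNA stability in these cells. BBC3 had the shortest half-life, 73 and 105 min in siRNA cells and 93 and 92 min in mock cells, at percentiles 1.14 to 1.86 of the tested genes over the 4 columns. BAX had the longest, 1094 and 1534 min in siRNA cells and 1113 and 1445 min in mock cells, at percentiles 69.6 to 81.9. CDKN1A lay at percentiles 8.28 and 8.72 in siRNA cells and 4.17 and 5.24 in mock cells. PHLDA3 was at 7.17 and 6.88 in siRNA cells and 5.24 and 6.02 in mock cells, and SESN1 at 7.70 and 6.28 in siRNA cells and 9.60 and 10.3 in mock cells. These 4 mRNAs were short-lived among the tested genes. MDM2 lay between percentiles 16.2 and 21.8 and RRM2B between 51.7 and 63.7. In the mock columns the order from short to long was BBC3, CDKN1A, PHLDA3, SESN1, MDM2, RRM2B and BAX, with both columns alike. In both siRNA columns CDKN1A came after PHLDA3 and SESN1, which were in mock order in replicate 1 and in the reverse order in replicate 2. BBC3, MDM2, RRM2B and BAX kept their places. The half-lives of CDKN1A, PHLDA3 and SESN1 overlapped between genes over the 4 columns, so the order of these 3 is not separated by the spread. RRM2B and BAX overlapped in minutes, but RRM2B came before BAX in each of the 4 columns and their percentiles did not overlap. The count of ATTTA did not order these half-lives: BBC3 and BAX, at the short and the long end, both had 0 copies, MDM2 with 32 lay between them, and RRM2B with 22 was the next longest after BAX.

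**Figure D3:**
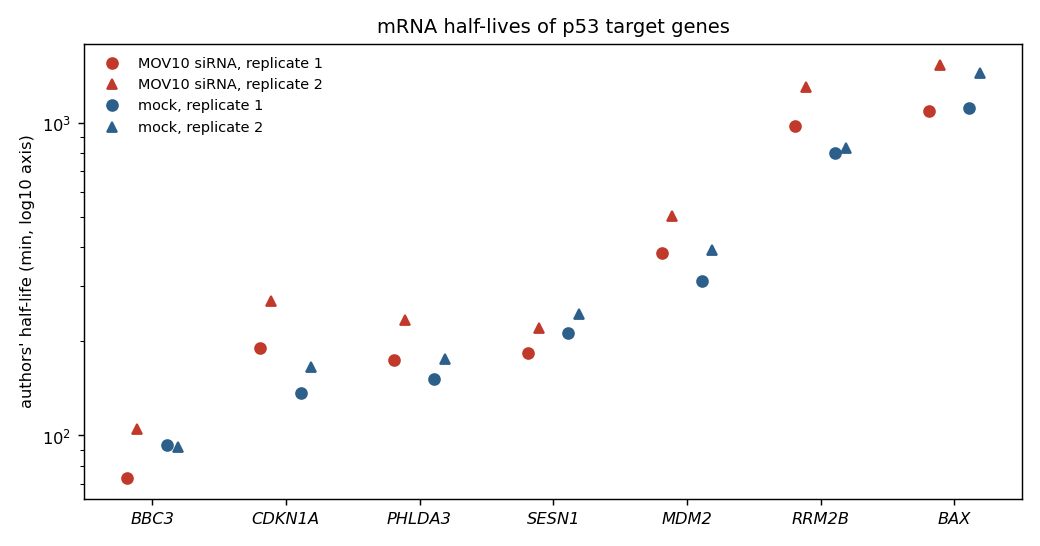
The authors' half-lives in min (log10 axis) of the p53 target genes, ordered by mock half-life, with MOV10 siRNA in red and mock in blue, circles for replicate 1 and triangles for replicate 2. BBC3 lies between 73 and 105 min and BAX between 1094 and 1534 min; CDKN1A, at 191 and 270 min after siRNA, and RRM2B, at 977 and 1301 min, have both siRNA values above both mock values.

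PPM1D, the p53-induced phosphatase that shuts off the damage response, had total values of 13.8 and 14.1 in siRNA cells and 13.4 and 13.1 in mock cells (change 0.09, limma adjusted p = 0.433). MDM4, the MDM2 relative that also inhibits p53, was not listed. These are mRNA values, and no protein is analysed here.

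A list of 46 other p53 target genes, of which 31 were listed and 27 tested, held genes called in both directions. Calls of genes outside the members, here and below, were not followed through the alternatives. By limma 8 of the 27 rose in total RNA and 7 fell (median change 0.03), where 12.9% and 14.3% of all genes did. Labelled RNA rose for 2 and fell for 6 (median -0.13), where 9.88% and 11.5% of all genes did. Flow-through RNA rose for 8 and fell for 10 (median -0.05), where 31.7% and 26.8% of all genes did. In half-life 0 rose and 2 fell, TRIAP1 and TNFRSF10D, with a median of -0.01, where 1.88% and 4.27% of all genes did. TRIAP1, which encodes a small mitochondrial protein that inhibits apoptosis, fell to 31.2 and 30.01 in total RNA of siRNA cells, against 53.9 and 54.0 in mock cells (log2 change -0.78, limma adjusted p = 3.9e-06). Its half-life was 94 and 127 min in siRNA cells, against 152 and 175 min in mock cells (change -0.77, limma adjusted p = 0.00929), while its labelled RNA did not pass (0.10). TNFRSF10D, a decoy receptor for the death ligand TRAIL, was at 9.60 and 10.5 in total RNA of siRNA cells, against 14.4 and 14.7 in mock cells (change -0.48, limma adjusted p = 0.000958). Its half-life was 127 and 192 min in siRNA cells, against 208 and 225 min in mock cells (change -0.67, limma adjusted p = 0.0168). FAS, a death receptor, had total values of 6.79 and 7.77 in siRNA cells and 4.67 and 6.34 in mock cells (change 0.38, limma adjusted p = 0.0246). BTG2, an antiproliferative gene, fell in labelled RNA, at 36.7 and 34.5 in siRNA cells, against 43.4 and 41.0 in mock cells (change -0.38, limma adjusted p = 0.00775). Its flow-through RNA rose by 0.33 (limma adjusted p = 0.0415), and its total change of 0.13 did not pass. Its half-life was 66 and 108 min in siRNA cells and 49 and 50 min in mock cells, a change of 0.56 that did not pass (limma adjusted p = 0.0567).

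Of 39 regulators of p53, 33 were listed and 32 tested. By limma 5 rose in total RNA and 4 fell (median 0.04), against 27.2% of all genes called in either direction. Labelled RNA rose for 3 and fell for 0 (median 0.11), against 21.4% of all genes. Flow-through RNA rose for 9 and fell for 7 (median 0.00), against 58.6% of all genes. Half-lives rose for 0 and fell for 1 (median -0.08), against 6.15% of all genes. The checkpoint kinases moved in opposite directions in total RNA. CHEK2 was at 25.5 and 20.9 in siRNA cells, against 13.1 and 15.7 in mock cells (change 0.67, limma adjusted p = 0.000181). Its labelled and flow-through changes were smaller, 0.23 and 0.32. CHEK1 was at 14.7 and 13.5 in siRNA cells, against 18.5 and 17.7 in mock cells (change -0.32, limma adjusted p = 0.0105), and it is the regulator whose half-life fell, at 586 and 717 min in siRNA cells against 730 and 827 min in mock cells (change -0.46, limma adjusted p = 0.0403). EHMT2, a histone methyltransferase that also methylates p53, fell by 0.62 in total RNA (limma adjusted p = 0.000181). RCHY1, a ubiquitin ligase for p53, rose by 0.45 in total RNA (limma adjusted p = 0.0016). Its labelled change of -0.16 did not pass, and its flow-through RNA rose by 0.18 (limma adjusted p = 0.0373). CDKN2A, whose ARF product inhibits MDM2, rose by 0.32 in total RNA (limma adjusted p = 0.0035). In flow-through RNA it was at 150 and 130 in siRNA cells and 302 and 188 in mock cells (change -0.75, limma adjusted p = 0.0225). Its labelled change of -0.24 did not pass (limma adjusted p = 0.137). Its mock flow-through columns differed by more than its mock total columns did, 136 and 145, and its exons overlap CDKN2B-AS1 on the opposite strand.

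**Figure D4:**
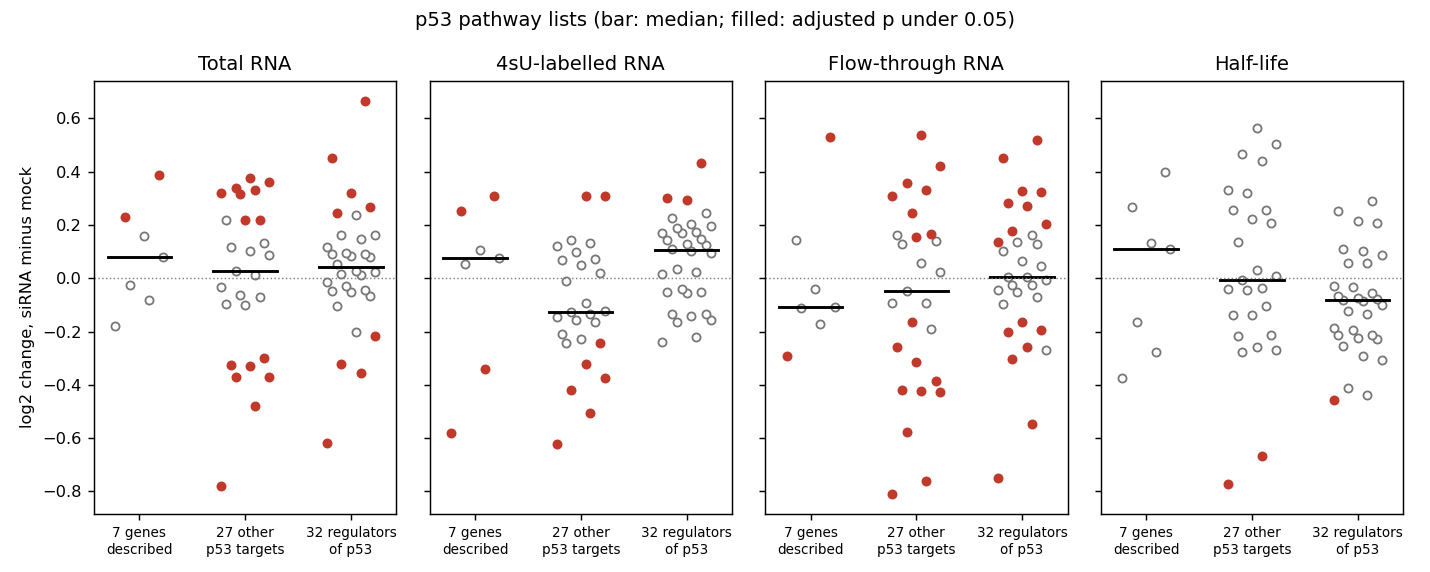
Log2 change, MOV10 siRNA minus mock and relative to the median gene, of the 7 p53 target genes described, 27 other p53 targets and 32 p53 regulators, in each fraction and in half-life. Each point is a gene, filled where the adjusted p is under 0.05, and bars are list medians; every list has filled points on both sides of 0 in flow-through RNA.

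Across the 12 centred expression columns the profiles most like that of CDKN1A were those of PNRC1, HHEX and HUS1 (Pearson 0.997, 0.995 and 0.995 over 12 columns). All columns share 3 fractions, so such values mostly follow how a gene divides between labelled and unlabelled RNA. Labelled PNRC1 was 54.4 and 61.9 in siRNA cells, against 85.4 and 83.9 in mock cells, and HHEX was at 18.3 and 18.5 in siRNA cells, against 23.6 and 21.5 in mock cells (changes -0.67 and -0.42, limma adjusted p = 0.000675 and 0.00419). In HUS1 the labelled columns were 6.15 and 6.64 in siRNA cells and 7.10 and 6.44 in mock cells. The profiles most like that of MDM2 were those of ZNF192, KCNQ5 and ATAD5 (Pearson 0.982, 0.976 and 0.976 over 12 columns).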

How the data were processed

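Per the labels' protocols, poly(A)+ TruSeq libraries were made from total, flow-through and 4sU-labelled RNA, and half-lives were computed by a published method. TopHat2 2.06 and hg18 are named in the submitters' processing notes. The deposited expression signal is normalised, with no unit or tool named. The other deposited values, half-lives, have no time unit in the header: recomputing them by first-order decay over 60 min, with fraction weights fitted by total least squares, gave Pearson correlations of 0.968 to 0.982 on the log2 scale and medians of 504 to 587 min, against 657 to 900 in the deposited columns, so they are read as minutes. The gap was widest in siRNA replicate 2 (533 recomputed, 900 deposited), so its generally longer half-lives were not found on recomputing. Depth is unknown, and the number of columns limits precision.

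GEO lists 6 samples, and the table gives 2 replicate columns for each. The minimum for testing was an average of 5 in total RNA, required in siRNA and in mock cells, which 6064 of 7682 genes met (78.9%). Values were taken as log2(value + 1), a scale that understates changes of low genes, and centred on each column's median gene. Uncentred, the median gene shifted by -0.01 (total), 0.14 (labelled), 0.02 (flow-through) and 0.20 (half-life). limma 3.58.1 (R 4.3.3) compared siRNA with mock columns with a mean-variance trend, with Benjamini-Hochberg adjustment over all 6064 genes. The interaction fit treats fractions of 1 culture as separate columns.

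Named genes are the listed members, MOV10, PPM1D, of each other list the 3 largest half-life and 3 largest total RNA changes, and the 3 profiles most like CDKN1A and MDM2. Members and lists were chosen with earlier results of these data known. Alternatives were another pseudocount (0.1), no minimum or one of 20, no centring, quantile normalisation, no trend, a replicate block, recomputed half-lives and leaving out each column. Single genes were followed through them for the members only, so calls of other named genes lack this check. Sequences come from RefSeq (GRCh38.p14) and GENCODE v29, matched by symbol. The authors' build differs, so no coordinate was set against their alignment. An item that the naming rule covers is not reported here.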

Additional observations from a re-analysis of the deposited data

Results flagged for a closer look

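The change in labelled RNA differed from the change in total RNA for CDKN1A, by -0.40 on the log2 scale (limma interaction, Benjamini-Hochberg adjusted p = 0.0128), and for RRM2B, by -0.50 (limma interaction, adjusted p = 0.0255). In both, labelled RNA fell while total RNA did not pass its own test. Both differences missed the threshold without centring. Both calls were also lost when either siRNA replicate was left out, and when mock replicate 1 (CDKN1A) or mock replicate 2 (RRM2B) was. For RRM2B total RNA changed by 0.16 while flow-through RNA changed by -0.04, and the reason was not tested.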

How the results depend on the processing

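Labelled CDKN1A, total PHLDA3 and flow-through MDM2 kept their direction and call under every alternative run; every other member call was lost in at least 1. Members past the test numbered 1 to 2 in total RNA, 2 to 3 in labelled, 1 to 3 in flow-through, 0 to 0 in half-life and 0 to 1 in the interaction with 1 column left out. Over all genes those ranges were 322 to 834 higher and 534 to 931 lower in total RNA, 379 to 498 and 447 to 647 in labelled, 1301 to 1652 and 1301 to 1479 in flow-through, 1 to 75 and 48 to 173 in half-life, and 228 to 363 and 199 to 407 in the interaction. Fewer columns also leave less to measure the spread.

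An expression minimum of 20 left CDKN1A, MDM2 and BAX among the members. It gave 1 call in total RNA, 1 in labelled, 2 in flow-through (MDM2 and BAX), 1 in half-life and 1 in the interaction, and over all genes 353 higher and 310 lower in total RNA, 252 and 320 in labelled, 923 and 744 in flow-through, 63 and 94 in half-life, and 222 and 259 in the interaction. Without centring members numbered 1 in total RNA, 4 in flow-through and 0 in the interaction. Over all genes 451 rose and 686 fell in total RNA (783 and 868 with centring), 1641 and 333 in labelled (599 and 700), 2 and 5 in half-life (114 and 259), and 1145 and 218 in the interaction (512 and 489). Quantile normalisation gave 2 members in labelled RNA and 1 in half-life, and no trend gave 2 in labelled. Recomputed half-lives gave 191 longer genes. The cause of these shifts was not tested, beyond the smaller number of genes or columns where the alternative removes them.

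Deviations of same-numbered siRNA and mock columns correlated at 0.05, -0.04, 0.11 and -0.07 in total, labelled, flow-through and half-life. With 2 replicate columns per group these correlations cannot show whether same-numbered columns share a batch. They also do not compare fractions within a condition, and the authors combined same-numbered fractions in each half-life. The replicate block added CDKN1A (adjusted p = 0.0223, limma) and BAX (0.0412) in flow-through RNA, for 4 members, and CDKN1A (0.0395) in total RNA, for 3. Over all genes it left fewer half-life calls, 21 longer and 118 shorter, against 114 and 259 without the block.

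Signs turned for BAX in total RNA (0.0013 with a minimum of 20, 0.0045 with quantile normalisation) and in half-life (0.031 without centring). Leaving out 1 column turned the sign of others within these ranges: labelled BBC3 -0.061 to 0.164, labelled PHLDA3 -0.036 to 0.187, flow-through RRM2B -0.083 to 0.00083 and the MDM2 interaction -0.021 to 0.179, the last also at -0.0085. None of these turned values passed the test. Depth is unknown, so the counting error of low values such as labelled RRM2B cannot be given.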
